A study of Mus musculus with 9 samples.

Results

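The comparison set 2 head muscles, the masseter and the digastric, against the 7 trunk and limb muscles of the same series, so that 2 of 9 arrays were weighed against the other 7 in 1 contrast over 22180 genes. The groups came from the muscle that the labels name for each array. The masseter closes the jaw and the digastric opens it. The other group held 3 muscles of the shoulder and upper forelimb (trapezius, supraspinatus, triceps) and 4 of the hindlimb (tibialis anterior, soleus, gastrocnemius, rectus femoris). All muscles came from male C57BL/6J mice, an inbred laboratory strain, at 12 weeks of age, and no treatment or altered allele is named. Total RNA of frozen tissue was labelled and read on whole-transcript GeneChip arrays, 1 for each muscle. The sources used here do not say whether an array held RNA of 1 animal or of several. Each array therefore stood for a muscle, the spread within a group was a spread between muscles, and differences between animals, between arrays and between muscles cannot be told apart. The series title names Hoxa10 and positional memory, the lasting record that adult muscle keeps of its place in the body.

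Muscles of the jaw arise from cranial mesoderm and are patterned by factors such as Tbx1, whereas most muscles of the trunk and limbs arise from somites, and those of the limbs from precursors that migrate under the control of Pax3 and Lbx1. The trapezius, counted here with the trunk and limbs, is an exception, since its development also depends on Tbx1 and it shares progenitors with muscles of the head and heart. Hox genes, which mark position along the body axis, are active in the trunk and limbs and largely silent in the first pharyngeal arch, from which the masseter and the front belly of the digastric form. Adult jaw muscles of the mouse are also fast muscles, used often, with many mitochondria and few slow fibres.

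All 9 arrays carried high levels of the muscle genes used to check the tissue, with Ckm between 12.12 and 12.85 and Acta1 between 12.76 and 12.94 on the log2 scale. The values are deposited log2 expression values with medians from 3.34 to 3.44 per array, and values near or below those medians cannot be told from background, so that a difference from such values is one of signal and is given without a fold. The SD over all probe sets was 1.92 to 1.96 in the triceps, rectus femoris and gastrocnemius and 2.03 to 2.08 in the other 6 arrays, which include both head muscles. Differences from the 4 trunk and limb arrays of that wider range are therefore given beside the main ones for some genes and lists, not for all. Others moved too. The Y RNA gene Rny3 went from -1.59 to -1.07 and the median of the salivary gland markers from 0.00 to 0.19.

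In the limma test 0 of 22180 genes passed an adjusted p of 0.05 in either direction (0%), and so 0 members of each list below. At an unadjusted p under 0.05 there were 1490 genes higher in head muscles (6.72%) and 1104 lower (4.98%). Differences were positive for 43.7% of genes and negative for 56.3%. Among 17824 probe sets without a single named gene, 2 passed (0.0112%), 792 lay above all others (4.44%) and 775 below (4.35%). Both head arrays lay above all 7 others for 1393 genes (6.28%) and below all 7 for 1331 (6%). After each array was centred on its median these counts were 1907 and 821. Such a separation was mostly narrow. A difference of at least 1 went with it for 184 genes above and 55 below (0.83% and 0.248%). A gap of at least 1 between the groups remained for 2 genes above (0.00902%), Mss51 and 1700016C15Rik, and for 1 below (0.00451%), Kcne1l. The masseter and digastric values of separated genes lay within 0.5 of each other for 1313 of the 1393 genes above (94.3%) and 1268 of the 1331 below (95.3%). The trunk or limb muscle nearest to the head muscles was most often the tibialis anterior among genes above (525 genes, 37.7%) and the soleus among genes below (326 genes, 24.5%). Among the brighter genes, those with a mean over the median gene, 10.4% lay above and 6.04% below, and among the dimmer ones 2.12% above and 5.96% below.

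Mss51, which encodes a mitochondrial protein enriched in skeletal muscle, had the largest difference of all genes measured. It stood at 11.12 in masseter and 8.16 in digastric, against 4.05 (soleus), a median of 4.81 and 5.81 (supraspinatus) in trunk and limb muscles. Both head arrays lay far above the others, and the masseter stood 2.96 above the digastric. The difference was 4.69 on the log2 scale (SE 0.63, adjusted p = 0.107 in limma), given without a fold since the soleus value lay near the array medians. The test was passed in 3 of 20 alternative settings, without the digastric array (adjusted p = 0.00322), without the soleus array (0.0452) and with the slow fibre mean as covariate (0.037). Without the masseter the difference was 3.21 (adjusted p = 0.329), and with the trapezius counted with the head muscles 2.91 (adjusted p = 0.449). Mss51 is a known target of myostatin signalling. Of the 15 measured genes of the Mss51 and myostatin list, Mss51 was the single one with both head arrays above the others, and the list's median difference was -0.05, beside -0.04 over all genes. Myostatin itself (Mstn) stood at 7.11 in masseter and 6.35 in digastric, against 1.56 in soleus, a median of 5.80 and 7.19 in trapezius, so that its groups overlapped.

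Rsad2, which encodes the interferon-induced antiviral enzyme viperin, had the largest moderated statistic on the higher side. It stood at 5.10 in masseter and 5.16 in digastric, against 3.76 in trapezius, a median of 3.92 and 4.15 in triceps. Here both head arrays were alike and the other 7 lay close together. The trunk and limb values lay close to the array medians, so that no fold is given. The difference was 1.22 (SE 0.14, adjusted p = 0.0599 in limma), with an adjusted p from 0.0298 to 0.449 over 20 alternative settings and a pass in 5 of them. It was 0.73 with the trapezius counted with the head muscles. Of the 21 measured genes of the interferon-induced list, Rsad2 was the single one with the head arrays above the others and 0 lay below. The list median was 0.01. Against the 4 arrays of wider range it was 0.11 (-0.01 over all genes), with 17 of 21 differences positive and 2 genes above those 4. The list mean was 3.95 in masseter and 4.16 in digastric, against 3.82 in tibialis anterior to 4.53 in triceps, which stood apart. Ifit1, another interferon-induced gene, was at 3.50 and 4.17 in the head arrays against 3.27 to 4.20 elsewhere, and Isg15, a ubiquitin-like modifier, at 2.47 and 2.88 against 2.21 to 3.26. Both overlapped the trunk and limb range, close to the array medians.

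The promoter of Rsad2 is shown because interferon-induced genes are read out through the interferon-stimulated response element. The RefSeq sequence (GRCm38.p6, chr12:26456453-26456702, minus strand) covers the 250 bases before the start of the gene, with capitals at the match to GAAANNGAAA, searched on both strands. One match lay in it, on the opposite strand. The motif was found in 978 of 32851 promoters of this length (2.98%). Of the 16 genes of the interferon list with a promoter available, 8 (50%) held it in any of their promoters. The first share counts promoters and the second genes, so the shares are not of the same kind. Of those 16 genes Rsad2 alone separated the head arrays, so the letters were shared with genes that overlapped.
Rsad2: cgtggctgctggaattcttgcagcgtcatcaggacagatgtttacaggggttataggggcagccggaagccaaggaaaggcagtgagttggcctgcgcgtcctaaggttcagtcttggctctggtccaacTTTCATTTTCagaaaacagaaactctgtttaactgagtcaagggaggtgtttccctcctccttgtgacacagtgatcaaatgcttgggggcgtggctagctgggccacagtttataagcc

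The other leading genes on the higher side were a mixed group with smaller differences. Ap1s2, a subunit of a clathrin adaptor complex, stood at 6.70 in masseter and 6.75 in digastric, against 4.48 to 5.79 with a median of 5.20, a difference of 1.66 (SE 0.29, adjusted p = 0.186 in limma). Malt1, a protease and scaffold of NF-kB signalling, was at 5.05 and 4.83 against 3.73 to 4.10. Sh2d4a, an adaptor protein, was at 6.30 and 6.00 against 4.25 to 5.40, where the trapezius was highest. P2ry1, a receptor for ADP, was at 5.88 and 6.28 against 4.72 to 5.36. These genes had no overlap between the groups. Differences were 1.47 for Sh2d4a, 1.02 for Malt1 and for P2ry1, 1.12 for the EF-hand protein gene Efcab2 and 0.96 for Prrg1, a membrane protein with a Gla domain, all at an adjusted p of 0.186. Smc6, a subunit of a DNA repair complex, differed by 1.30 (adjusted p = 0.201) and Hat1, a histone acetyltransferase, by 1.06 (adjusted p = 0.199), or by 0.11 on its other, dimmer probe set. Abhd18 differed by 1.65 (adjusted p = 0.236), with the soleus at 5.24 nearest to the head values of 5.92 and 6.16.

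The further genes named on the higher side were of several kinds. Kcnq5, a voltage-gated potassium channel, stood at 7.62 in masseter and 7.25 in digastric, against 5.65 in rectus femoris, a median of 6.16 and 6.66 in supraspinatus. The difference was 1.23 (SE 0.25, adjusted p = 0.238), and 0.34 on its other probe set, which read between 2.52 and 3.20 on all arrays. Atp1b4, a muscle relative of the sodium pump's beta subunits, was at 6.67 and 6.38 against 4.05 to 5.59 (difference 1.55, adjusted p = 0.283). Klhl33, a kelch-like protein, was at 8.43 and 8.27 against 5.89 to 7.36 (difference 1.61, adjusted p = 0.283), and Ccdc85a, a coiled-coil protein, at 4.93 and 5.11 against 2.94 to 4.14 (difference 1.41, adjusted p = 0.238). Within the list of calcium handling and excitation genes, 1 of 16 lay above all others (6.25%, beside 6.28% over all genes) and 0 below, with a median of 0.17. The chloride channel Clcn1, at 8.64 and 7.99 against 7.58 to 8.19, overlapped the other muscles through the digastric.

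**Figure D1:**
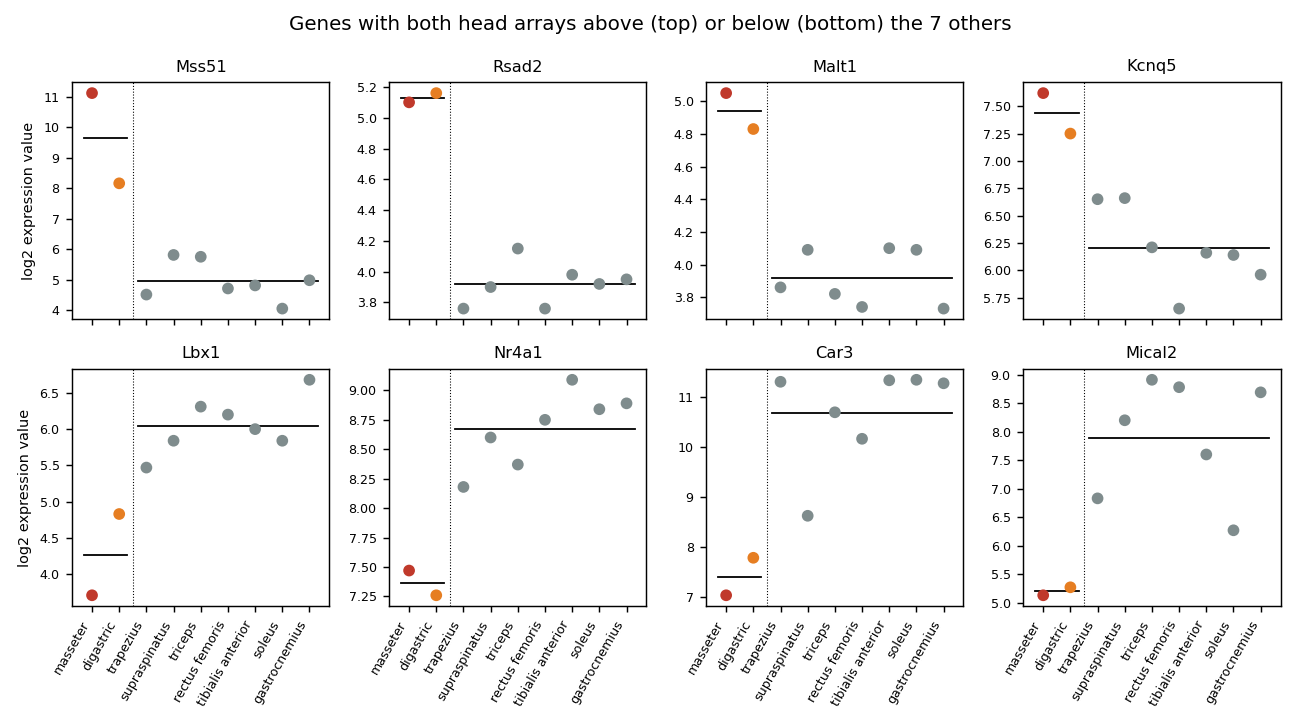
Each panel plots the deposited log2 expression value (vertical axis) of 1 gene in 9 muscles (horizontal axis, 1 array each), with masseter in red, digastric in orange, the 7 trunk and limb muscles in grey and lines at the group means. The head arrays lie above all others in the top panels, by most for Mss51 (11.12 and 8.16 against at most 5.81), and below all others in the bottom panels, as for Car3 (7.03 and 7.78 against at least 8.62).

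Hox genes of paralogue groups 5 to 8 had, of all lists, the largest share of members below the other muscles. All 11 measured genes had negative differences, 8 of 11 lay with both head arrays below all 7 others (72.7%, beside 6% over all genes), and 9 had an unadjusted p under 0.05, beside 4.98% over all genes. The list median was -0.80, beside -0.04, and -0.62 against the arrays of wider range. Of these 11 genes 0 passed the adjusted test. Their mean level was 2.93 in masseter and 3.13 in digastric and from 3.64 (trapezius) to 3.96 (rectus femoris) in the other muscles. The head means lay below the array medians, where signal cannot be told from background.

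Hoxa7 had the strongest statistic among the Hox genes. It stood at 3.31 in masseter and 3.47 in digastric, against 4.07 in trapezius, a median of 4.54 and 5.0 in triceps, a difference of -1.16 (SE 0.21, adjusted p = 0.194 in limma). The head values lay at the level of the array medians. Hoxa6 was at 4.11 and 4.10 against 4.66 to 5.38 (difference -0.91, adjusted p = 0.245). Hoxa5 was at 2.08 and 2.40 against 2.99 to 4.35, with a difference of -1.21. For these 3 neighbours of the Hoxa cluster the groups did not overlap. Hoxc6 was at 2.47 and 2.56 against 2.85 in trapezius, a median of 4.05 and 4.70 in rectus femoris, so that the trapezius lay nearest to the head muscles. Hoxb8 (3.29 and 3.15 against 2.81 to 3.97) and Hoxc5 (2.06 and 2.49 against 2.19 to 2.52) overlapped, and so did Hoxd8 through the digastric, at 4.63 against a lowest value of 4.46 in supraspinatus.

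Posterior Hox genes parted the muscles differently. Of the 15 measured genes of groups 9 to 13, 14 had negative differences and 3 lay below all others (20%, beside 6% over all genes), Hoxa9, Hoxa10 and Hoxd10, with a list median of -0.47. Hoxa10, which the series title names, read 3.26 in each head array, against 3.31 in trapezius, a median of 4.02 and 4.43 in gastrocnemius. The trapezius stood just above the head muscles, and the difference was -0.71 (SE 0.23, adjusted p = 0.352). The head and trapezius values all lay below the array medians, where signal cannot be told from background. For Hoxa10 the head muscles thus cannot be told from the trapezius. Hoxc10 stood at 3.06 in masseter and 3.30 in digastric, and among the other muscles it ran from 3.22 in supraspinatus to 7.84 in tibialis anterior. Its head values overlapped those of the shoulder, and the difference from the pooled 7 muscles was -2.46 (SE 1.15, adjusted p = 0.43). In groups 1 to 4, 2 of 10 genes (20%), Hoxa4 and Hoxc4, lay below all others, with a list median of -0.21. The 8 measured Hox cofactor genes had a median of -0.07, with 0 above and 0 below.

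**Figure D2:**
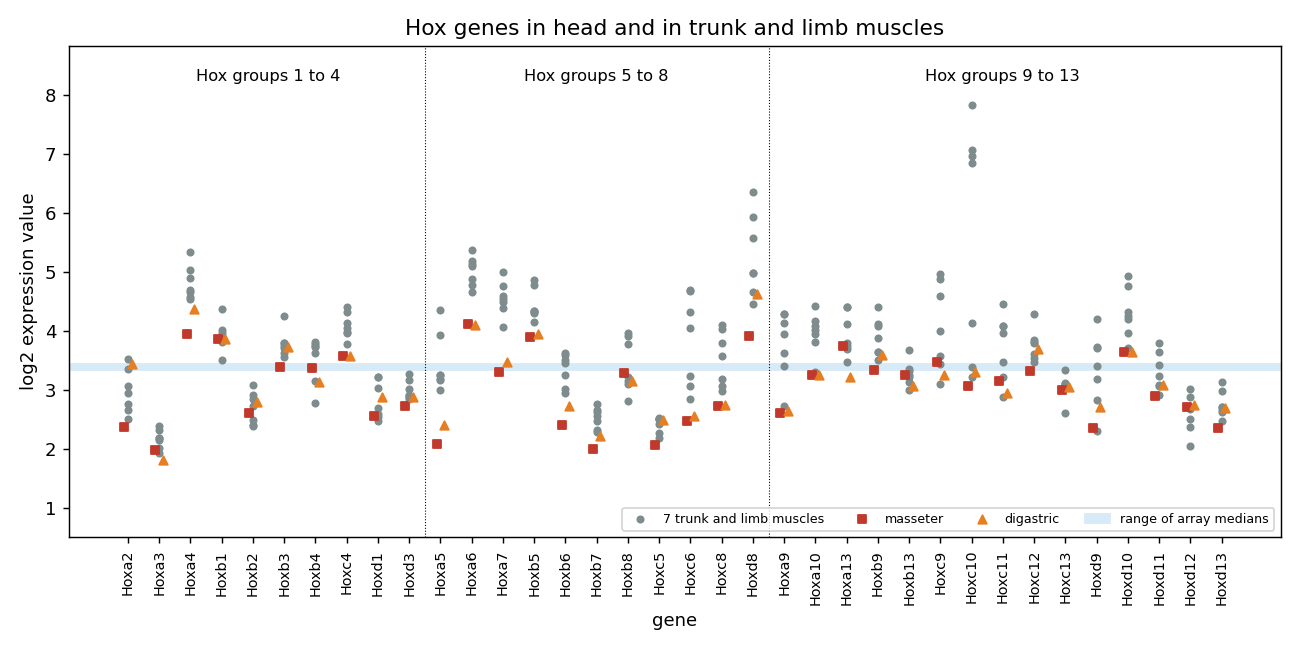
The log2 expression value (vertical axis) of each Hox gene with a plotted measurement (horizontal axis) is given for masseter (red squares), digastric (orange triangles) and the 7 trunk and limb muscles (grey points), with the range of array medians, 3.34 to 3.44, shaded. Head values of Hoxa5, Hoxa6 and Hoxa7 lie below all grey points, while those of Hoxc10 (3.06 and 3.30) lie among its lowest grey points.

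Lbx1, the homeobox gene of migrating limb muscle precursors, was the patterning gene with the largest difference outside the Hox clusters. It stood at 3.71 in masseter and 4.83 in digastric, against 5.47 in trapezius, a median of 6.00 and 6.68 in gastrocnemius. Both head arrays lay below all others, the masseter by more than the digastric, and the trapezius was nearest. The difference was -1.78 (SE 0.32, adjusted p = 0.186 in limma), given without a fold since the masseter value lay near the array medians. Other genes of the migratory precursor list overlapped. Pax3, which acts upstream of Lbx1, was at 3.34 and 3.86 against 3.44 to 4.24, and the receptor gene Met at 5.82 and 5.47 against 4.90 to 5.76. That list had 1 of 8 genes below (12.5%, beside 6% over all genes) and 0 above, with a median of 0.17.

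Regulators of head muscle did not form a group of higher genes. Of 13 measured genes in that list 0 lay above all others and 3 lay below (23.1%, beside 6% over all genes), Msc, Nkx2-5 and Tlx1, with a median of -0.27. On its other, dimmer probe set Msc overlapped, at 3.68 and 3.36 against 3.32 to 3.87 (difference -0.11). Tbx1, a pharyngeal mesoderm factor, stood at 7.79 in masseter and 8.21 in digastric, against 5.47 in triceps, a median of 7.38 and 8.0 in tibialis anterior. The masseter thus lay below the tibialis anterior, and the difference of 1.01 (SE 0.56, adjusted p = 0.49) was 0.66 against the arrays of wider range. Ebf1 was highest in masseter at 7.27, while the digastric at 6.15 lay within the range of 5.06 to 6.18. Among limb and trunk factors, Tbx15, a T-box gene of fast fibres and trunk patterning, was at 9.30 and 9.22 against 7.36 in soleus, a median of 8.14 and 8.96 in supraspinatus, a difference of 1.09 (SE 0.35, adjusted p = 0.352). Pitx1, the hindlimb identity factor, was at 3.29 and 3.55 against 3.57 to 4.70 (difference -0.69). That list held 2 genes above (9.52%, beside 6.28% over all genes) and 4 below (19%) of 21, and the 9 regulators of the Six2 and Eya1 families held 0 of either, with medians of -0.19 and 0.14.

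Slow fibre genes did not move as 1 group. Those with both head arrays below the others were Myh7, Myh7b, Myl3, Tnnc1, Tnni1, Tnnt1 and Tpm3, which encode slow myosin, troponin and tropomyosin chains, while 6 of the 16 listed genes had positive differences, and 0 passed the adjusted test. Myh7, the slow myosin heavy chain, stood at 4.10 in masseter and 3.68 in digastric, against 4.35 in tibialis anterior, a median of 7.66 and 11.62 in soleus. Both head values lay below all others but close to the tibialis anterior and supraspinatus (4.43), and the difference of -3.35 had an SE of 1.54 (adjusted p = 0.428 in limma). Myl3, a slow and ventricular myosin light chain, was at 2.71 and 3.46 against 4.35 to 10.39 (difference -3.00, SE 1.22, adjusted p = 0.396). Tnni1, the slow troponin I, was at 3.23 and 3.42 against 4.0 to 9.89. In all of these the soleus stood far above the other 6 muscles. Of the 16 genes of the list 7 lay below all others (43.8%, beside 6% over all genes) and 0 above, with a median of -0.63. Tpm3, counted among the 7, overlapped on its other, dimmer probe set, at 4.47 and 5.16 against 3.73 to 5.71 (difference 0.22). The 6 with positive differences included Actn2, a sarcomeric actinin, at 11.48 and 11.41 against 10.30 to 12.27, and the calsequestrin gene Casq2, at 6.09 and 7.55 against 5.45 to 9.11, both of which overlapped. The list mean was 5.35 in masseter and 5.76 in digastric, both above the rectus femoris (5.20), and the digastric was also above the tibialis anterior (5.51) and the supraspinatus (5.59). The median was -0.21 without the soleus array, -0.27 without the masseter, -1.08 without the digastric and -1.09 against the arrays of wider range.

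Fast fibre genes differed less as a list, with 1 of 18 above and 1 below (5.56% each, beside 6.28% and 6% over all genes) and a median of -0.15. Myh1, the IIx myosin heavy chain, was at 12.79 in both head arrays, against 11.22 in gastrocnemius, a median of 11.83 and 12.36 in tibialis anterior (difference 1.04, SE 0.28, adjusted p = 0.313). Ampd1, the AMP deaminase of fast muscle, was at 9.84 and 9.23 against 10.01 in soleus to 10.94 in tibialis anterior (difference -0.95, SE 0.25, adjusted p = 0.313). The IIa and IIb myosins overlapped. Myh2 stood at 8.32 in masseter and 10.68 in digastric against 7.70 to 11.62, and Myh4 was at 12.42 and 11.94 against 8.85 in soleus and 12.84 to 12.95 in the other 6. Myh4 in head muscles was thus below every muscle but the soleus. The perinatal myosin Myh8 stood at 6.79 in masseter and 5.12 in digastric against 3.83 to 5.56, and its other probe set read 10.49 in masseter, 4.08 in digastric and 3.04 to 3.71 elsewhere. Tnnt2, cardiac and embryonic troponin T, was at 4.21 and 4.38 against 4.61 to 6.49. It was the 1 gene of 17 (5.88%) in the developmental, cardiac and jaw sarcomere list that lay below all others.

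**Figure D3:**
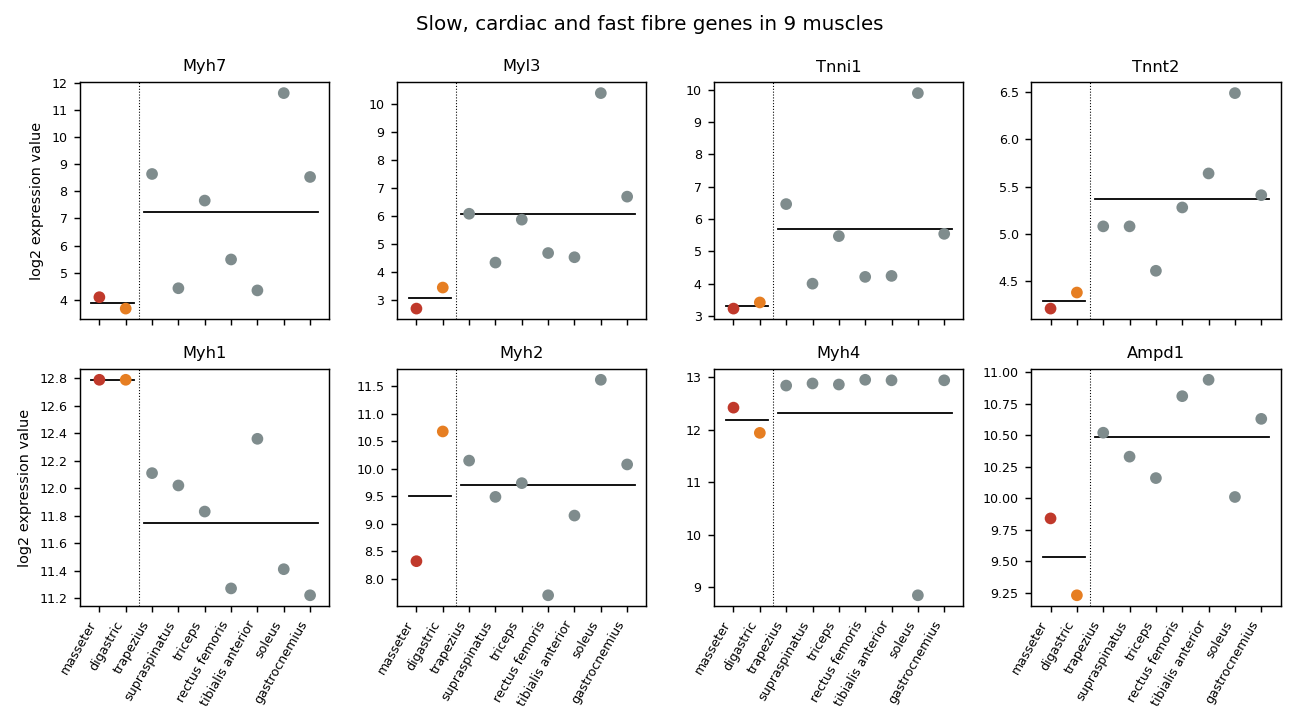
Each panel plots the log2 expression value (vertical axis) of 1 fibre gene in 9 muscles (horizontal axis), with masseter in red, digastric in orange, the others in grey and lines at group means. Slow and cardiac genes (Myh7, Myl3, Tnni1, Tnnt2) are lowest in the head muscles and highest in soleus, Myh1 is highest in the head muscles at 12.79, and Myh2 parts the masseter (8.32) from the digastric (10.68).

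Genes of the citrate cycle and the respiratory chain had higher list means in both head muscles, though 0 passed the adjusted test. All 23 measured genes had differences of 0 or above, 10 of 23 lay above all 7 others (43.5%, beside 6.28% over all genes, and 10.4% over brighter genes) and 0 below, and the median was 0.48. Their mean level was 9.82 in masseter and 9.97 in digastric, against 9.04 in rectus femoris to 9.74 in soleus. Ndufs1, a subunit of complex I, was at 8.96 and 9.03 against 7.71 in rectus femoris, a median of 8.47 and 8.55 in trapezius (difference 0.77, SE 0.25, adjusted p = 0.352). Uqcrc2 of complex III was at 10.36 and 10.39 against 9.19 to 10.01, and Cox5a of complex IV at 10.13 and 10.29 against 9.17 to 9.92. In these 3 genes the lowest value was that of the rectus femoris. The list means of the 3 arrays of narrow range were 9.04, 9.12 and 9.33, the lowest of all muscles, and against the 4 arrays of wider range the list median was 0.24. The count of 10 was 20 without the masseter, 15 without the soleus or with median centring, 5 with cyclic loess and 2 with the trapezius counted with the head muscles.

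Genes of fatty acid use had positive differences for 16 of 17 members, but 1 lay above all others (5.88%, beside 6.28% over all genes), the uncoupling protein gene Ucp3, at 8.23 and 8.44 against 7.36 to 8.06. The median of 0.37 became 0.04 against the arrays of wider range, 0.65 without the masseter and 0.10 without the digastric. The digastric carried more of these genes than the masseter. Lpl, which releases fatty acids from lipoproteins, stood at 9.14 in masseter and 10.35 in digastric against 7.99 to 10.08, and the fatty acid transporter Cd36 at 8.66 and 9.72 against 7.36 to 9.41. Glycolysis and glycogen genes had 1 of 15 above (6.67%), Hk2, and 0 below, with a median of -0.20. Hk2, the insulin-regulated hexokinase of muscle, was at 8.95 and 8.92 against 8.20 to 8.72. Oxidative regulators and angiogenic factors had 14 of 16 positive differences, 0 above and 0 below, and a median of 0.24.

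Most endothelial markers had higher values in head muscles. Of 10 genes 9 had positive differences (beside 43.7% over all genes), 7 had an unadjusted p under 0.05 (beside 6.72%), 0 passed the adjusted test and 2 lay above all others (20%, beside 6.28% over all genes and 10.4% over brighter genes), with a median of 0.64, and 0.42 against the arrays of wider range. Emcn, a sialomucin of capillary and venous endothelium, was at 6.67 and 6.47 against 4.86 in rectus femoris, a median of 5.47 and 6.25 in soleus (difference 1.08, SE 0.31, adjusted p = 0.313). Tek, the angiopoietin receptor, was at 6.45 and 6.81 against 5.48 to 6.35. The soleus was the highest of the other muscles in both and its list mean of 6.88 lay between those of masseter (6.76) and digastric (7.01). Without the soleus array 9 of the 10 markers lay above all others, and without the masseter 6 did. In tissue RNA, more cells of a type and more RNA per cell cannot be told apart.

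Car3, the carbonic anhydrase that slow fibres and fat cells hold in large amounts, had the largest difference on the lower side after the slow myosin gene Myh7. It stood at 7.03 in masseter and 7.78 in digastric, against 8.62 in supraspinatus, a median of 11.27 and 11.34 in soleus. All muscles but the supraspinatus lay above 10. The difference was -3.27 (9.63-fold lower, SE 0.61, adjusted p = 0.201 in limma), and -3.49 on its other probe set, and the test was passed in 1 of 20 alternative settings, without the supraspinatus array (-3.61, adjusted p = 0.0109). With the trapezius counted with the head muscles the difference was -1.87 (adjusted p = 0.465), and the highest adjusted p was 0.788, without the masseter. White adipocyte markers, a list that holds Car3, had 6 of 12 genes below all others (50%, beside 6% over all genes) and 0 above. The median was -0.91, and -1.14 against the arrays of wider range. Of the 12, 10 had negative differences and 2 positive ones, of up to 0.32. The list mean was 5.75 in masseter and 5.79 in digastric, against 6.19 in tibialis anterior, and 8.18 in trapezius, which stood apart from the other 6.

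The lipid synthesis genes in that list followed the same order. Scd1, a fatty acid desaturase, was at 5.84 and 5.86 against 6.57 in tibialis anterior, a median of 6.81 and 9.40 in trapezius (difference -1.41, SE 0.59, adjusted p = 0.404). Fasn, the fatty acid synthase, was at 5.40 and 5.50 against 5.78 to 9.45, and Adipoq, the adipocyte hormone adiponectin, at 2.97 and 3.16 against 3.46 to 6.67. The head values lay just below the lowest limb muscle, and the trapezius lay far above. With the trapezius counted among the head muscles the list median was 0.18 and the Scd1 difference 0.14. Cyp2e1, a cytochrome P450 also found in fat, was at 4.76 and 4.63 against 5.58 to 8.25, again with the trapezius highest (difference -1.89, adjusted p = 0.313). The share of adipocyte RNA in these differences was not tested.

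Nr4a1, an orphan nuclear receptor switched on early after exercise and other stimuli, had low values in head muscles. It stood at 7.47 in masseter and 7.26 in digastric, against 8.18 in trapezius, a median of 8.75 and 9.09 in tibialis anterior, with no overlap. The difference was -1.31 (2.48-fold lower, SE 0.22, adjusted p = 0.186 in limma). Its relative Nr4a2 was at 3.03 and 4.34 against 4.57 to 5.46 (difference -1.24, SE 0.30, adjusted p = 0.283), while Nr4a3 was at 5.05 and 4.73 within a range of 4.08 to 6.32. Of 23 immediate early genes 6 lay below all others (26.1%, beside 6% over all genes) and 0 above, with a median of -0.27. The other 4 were Egr2, Ier3, Dusp1 and Maff, and Fos (5.44 and 5.03 against 4.63 to 5.37) and Jun (7.81 and 7.53 against 7.43 to 8.31) overlapped. With the masseter alone as head array 12 of 23 lay below.

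The promoters of Nr4a1 and Nr4a2 are shown because genes of this kind are read out through the cyclic AMP response element. Each sequence covers the 250 bases before the gene's start in RefSeq (GRCm38.p6), at chr15:101266596-101266845 on the plus strand for Nr4a1 and chr2:57124004-57124253 on the minus strand for Nr4a2. Capitals mark the core TGACG of that element, searched on both strands, with 4 matches in each. The core was found in 5836 of 32851 promoters (17.8%). Of the 19 genes of the immediate early list with a promoter available, 14 (73.7%) held it in any of their promoters. Here too the first share counts promoters and the second genes. Genes that overlapped between the groups thus carried it too.
Nr4a1: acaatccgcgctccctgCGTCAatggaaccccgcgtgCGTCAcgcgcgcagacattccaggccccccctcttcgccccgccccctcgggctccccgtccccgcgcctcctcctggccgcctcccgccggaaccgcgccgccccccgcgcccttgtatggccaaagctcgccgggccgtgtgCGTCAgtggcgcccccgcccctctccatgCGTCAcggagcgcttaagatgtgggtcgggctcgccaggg
Nr4a2: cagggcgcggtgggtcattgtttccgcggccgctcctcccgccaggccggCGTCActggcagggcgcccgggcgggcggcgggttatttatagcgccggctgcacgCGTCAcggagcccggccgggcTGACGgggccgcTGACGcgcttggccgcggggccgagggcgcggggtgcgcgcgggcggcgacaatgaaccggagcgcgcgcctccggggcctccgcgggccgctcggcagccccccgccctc

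The further genes named on the lower side were of several kinds. Mical2, an enzyme that oxidises actin, stood at 5.13 in masseter and 5.27 in digastric, against 6.27 in soleus, a median of 8.20 and 8.91 in triceps. The difference was -2.70 (6.48-fold lower, SE 0.61, adjusted p = 0.283), and -2.02 against the arrays of wider range. Irs2, an insulin receptor substrate, was at 5.27 and 5.33 against 6.21 to 8.0, with the soleus highest and apart from the rest (difference -1.40, adjusted p = 0.313). Kcne1l, an accessory subunit of potassium channels, was at 3.39 and 3.64 against 4.64 to 5.88 (difference -1.45, adjusted p = 0.203). The groups did not overlap in these genes. Lgals1, the lectin galectin 1, was at 8.85 and 9.07 against 9.69 to 10.15 (difference -0.92, adjusted p = 0.186). Nfatc2, a calcineurin-controlled transcription factor, differed by -0.86 (adjusted p = 0.245), the adhesion gene Nectin1 by -0.75 (adjusted p = 0.203) and the deubiquitinase gene Usp35 by -0.95 (adjusted p = 0.186), the last with head values of 2.31 and 2.60, below the array medians. Bnip5 (-0.82) and Cks1brt (-0.74), both at an adjusted p of 0.238, also lay near the medians, and the Y RNA gene Rny3 differed by -1.59 (adjusted p = 0.313).

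Extracellular matrix genes had 15 of 17 negative differences (beside 56.3% over all genes), 6 below all others (35.3%, beside 6%), 0 above, 0 past the adjusted test and a median of -0.62. Their mean was 6.95 in masseter and 7.49 in digastric, against 7.37 in trapezius to 8.05 in triceps, so that the digastric overlapped the others and the masseter did not. Col6a3, a chain of collagen VI, was at 6.91 and 6.95 against 7.42 in soleus, a median of 7.78 and 8.44 in rectus femoris (difference -0.92, SE 0.25, adjusted p = 0.313). Col3a1 was at 8.86 and 9.05 against 9.17 to 10.21, and Col1a1 at 8.62 and 9.86 against 9.15 to 10.45. Col1a1 overlapped through the digastric. Without the digastric array 15 of the 17 genes lay below all others and without the trapezius 9 did, and the median was -0.33 without the masseter and -0.79 without the digastric. Tendon markers parted the head muscles from each other, with means of 4.39 in masseter and 5.94 in digastric against 4.22 in trapezius to 6.40 in soleus. Their median was -0.40, or 0.24 for the digastric and -1.20 for the masseter alone, and 0 of 13 lay above or below.

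Markers of other cell types and of neighbouring organs were read as a check on the tissue. Over all genes 6% lay below all others and 6.28% above. Myeloid markers had 3 of 14 below all others (21.4%), Cd68, Csf1r and Mrc1, 0 above and a median of -0.41, and the triceps was highest in all 3. Of the 14, 12 had negative differences and 2 positive ones, of up to 1.30. The latter were the neutrophil genes S100a8 and S100a9, which ran from -0.23 to 2.83 and from -0.29 to 1.92 over the alternative settings. Schwann cell and nerve markers had 7 of 8 negative differences, 3 of 8 below all others (37.5%), 0 above and a median of -0.21. The 3 were Cnp, an enzyme of myelin-forming cells, at 3.44 and 4.02 against 4.17 to 4.84, Egr2, which the immediate early list also holds, at 3.27 and 3.18 against 3.47 to 4.15, and S100b, at 1.80 and 2.09 against 2.12 to 2.68. The gaps were at most 0.20, and the defining Schwann cell factor Sox10 overlapped, at 3.53 and 3.93 against 3.50 to 4.03. Thyroid and parathyroid markers had 2 of 6 below (33.3%), Iyd and Tshr, with head values of 2.66 to 3.13, under the array medians, and a median of -0.18. Lymphocyte markers had 2 of 12 below (16.7%), Cd4 and Cd79b, at 2.56 to 3.14 in the head arrays, and a median of -0.10. Cartilage and bone markers had 2 of 11 below (18.2%), Acan and Sox9, 1 above, Bglap, and a median of -0.25. The part of nerve, blood and bone cells in other differences was not tested. Salivary gland markers had 2 of 16 above all others (12.5%), Bpifa2 and Pip, 0 below and a median of 0.00, and their mean was 3.65 in masseter and 3.25 in digastric against 2.96 to 3.33. Of the 16, 8 had positive and 8 negative differences. An unadjusted p under 0.05 in limma was found for 4 on the higher side (beside 6.72% over all genes) and 0 on the lower. Bpifa2, a secretory protein of the parotid gland, stood at 3.74 in masseter and 5.16 in digastric, against 2.24 in triceps, a median of 2.42 and 2.99 in supraspinatus (difference 1.94, SE 0.31, adjusted p = 0.186 in limma). It passed the test in 1 of 19 alternative settings, without the masseter (2.66, adjusted p = 0.0424), and was 1.23 without the digastric (adjusted p = 0.353) and 1.19 with the trapezius counted with the head muscles. Klk1, a tissue kallikrein of salivary glands, was at 7.28 in masseter alone, and at 0.91 in digastric and 1.16 to 1.93 elsewhere. The digastric thus carried more Bpifa2 and the masseter more Klk1. The amylase gene Amy1 overlapped the other muscles, but its difference was positive in all 19 alternative settings, from 0.29 to 1.53. Other secretory genes such as Prol1 (1.03 and 0.93 against 0.86 to 1.43) and Prb1 (2.01 and 2.21 against 1.58 to 2.98) were below the array medians in both head arrays. The part of salivary RNA in other differences was not tested.

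Further lists on patterning, growth and signalling held between 1 and 5 separated genes each. Over all genes 6.28% lay above all others and 6% below. The shares given for the myogenic, clock, neuromuscular junction and Wnt, Bmp and Fgf lists were close to these. Cranial neural crest and jaw patterning factors had 1 of 22 above (4.55%), Nr2f2, and 3 below (13.6%), Dlx5, Pou3f3 and Lhx6, with a median of -0.27. Myogenic regulators and satellite cell genes had 1 of 22 below (4.55%), the differentiation factor Myog, at 5.50 and 5.62 against 5.65 to 6.85, and a median of -0.05. Atrophy and glucocorticoid genes had 2 of 15 above (13.3%) and 3 below (20%), with the ubiquitin ligases Fbxo32 (8.51 and 8.70 against 7.65 to 8.50) and Trim63 (7.75 and 7.69 against 8.08 to 8.62) on opposite sides. Clock genes had 1 of 16 on each side (6.25% each), Clock at 8.16 and 7.90 against 5.67 to 7.64 and Per1 at 6.69 and 6.37 against 6.86 to 7.46. Neuromuscular junction genes had 1 of 13 above (7.69%), the adult acetylcholine receptor subunit Chrne (6.56 and 6.50 against 5.80 to 6.43). Wnt, Bmp and Fgf signals had 2 of 25 below, Sfrp2 and Fgf6. The muscle growth factor Fgf6 was at 4.32 and 4.76 against 4.97 to 5.84.

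**Figure D4:**
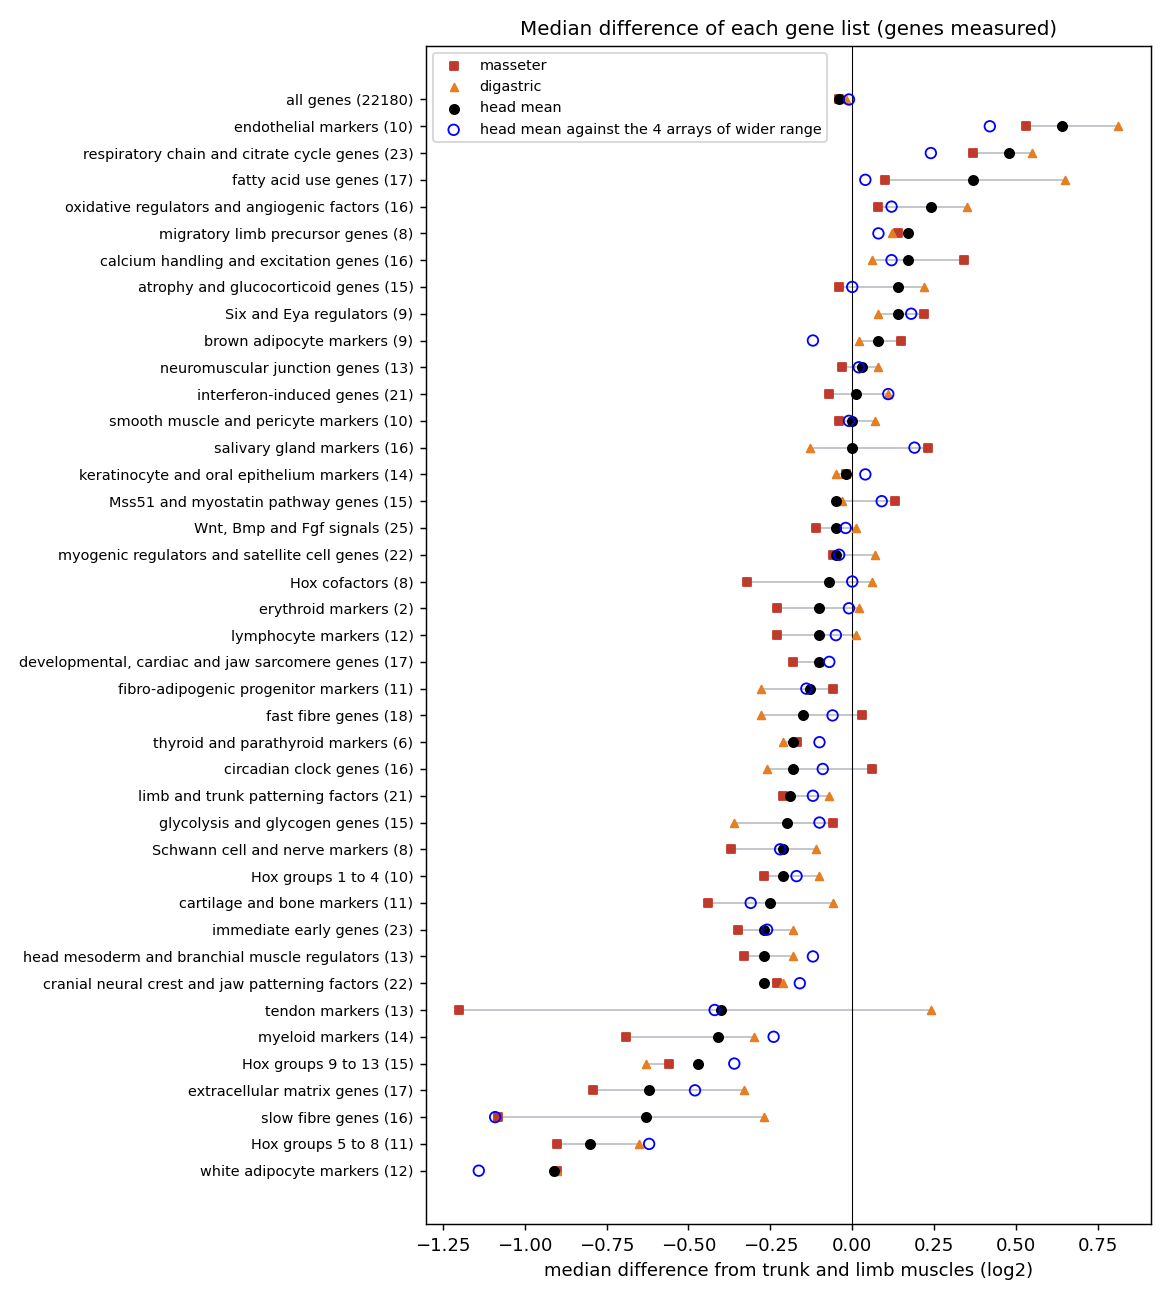
The median log2 difference of each gene list from the mean of the 7 trunk and limb muscles (horizontal axis) is plotted per list (vertical axis, with genes measured), for the head mean (black), masseter (red), digastric (orange) and the head mean against the 4 arrays of wider range (blue circles). Endothelial (0.64) and respiratory chain genes (0.48) lie farthest to the right and white adipocyte markers (-0.91) and Hox groups 5 to 8 (-0.80) farthest to the left, and the masseter and digastric part most for tendon markers (-1.20 and 0.24).

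**Figure D5:**
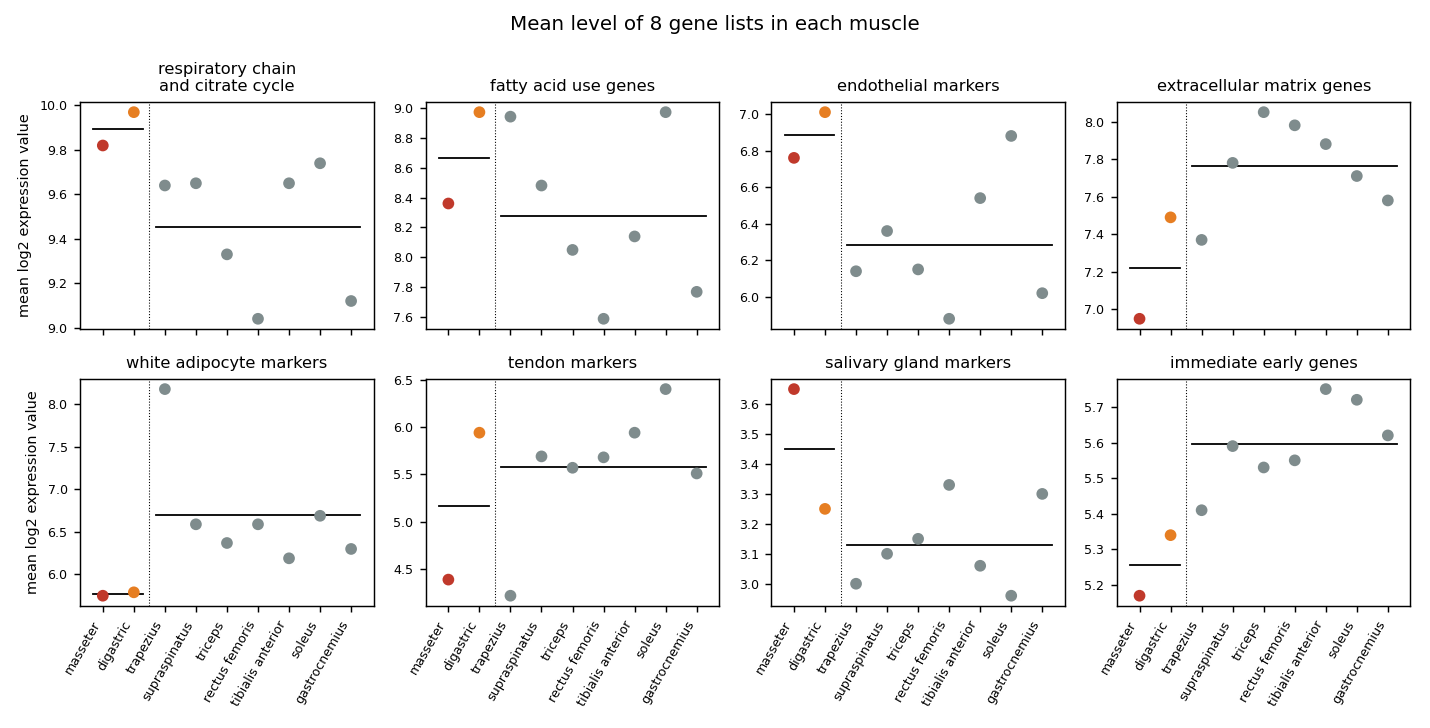
Each panel plots the mean log2 expression value of 1 gene list (vertical axis) in 9 muscles (horizontal axis), with masseter in red, digastric in orange, the others in grey and lines at group means. Both head arrays lie outside the range of the others for respiratory chain genes (9.82 and 9.97 against at most 9.74), white adipocyte markers (5.75 and 5.79 against at least 6.19) and immediate early genes (5.17 and 5.34 against at least 5.41), and at least 1 of them lies within it for the fatty acid, tendon, endothelial, extracellular matrix and salivary lists.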

How the data were processed

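Per the labels' protocols, biotin-labelled cDNA from total RNA of 9 muscles was hybridised to whole-transcript GeneChip arrays, 1 per muscle. The authors deposited log2 expression values for each probe set. The submitters' processing notes name GCRMA, a background correction and normalization by probe sequence, and no version. That the scale is log2 was inferred from the values (0.12 to 13.49). No detection calls were used, and the number of arrays limits the precision. No genome build for the array is named in the labels, so genes carry no coordinates except promoters read from RefSeq (GRCm38.p6). No entry was matched for the Mss51 promoter.

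Of 41345 probe sets 23521 had 1 gene, 1814 several and 16010 none named here. Symbols of 23328 were updated by Entrez identifier, and 193 kept the array's symbol. The probe set with the highest mean was used where a gene had more than 1 (1082 genes), which left 22180 genes.

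The contrast was fitted with limma 3.58.1 (R 4.3.3; lmFit, eBayes, two-sided) on all 9 arrays and genes, with Benjamini-Hochberg adjustment, 7 residual degrees of freedom (11.5 with moderation). All adjusted p-values are limma's. Folds are 2 to the power of the log2 difference. Exact permutation of 1 value among the 36 choices of head arrays cannot go below p = 0.0556 (two-sided, smaller tail doubled).

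Named genes are, per direction, the 12 with the largest moderated statistic, since 0 passed, and the 8 with the widest gap between groups, 33 in all, plus members of fixed lists. Predicted genes and small RNAs of some classes were not named. The lists (623 entries, 570 measured, 554 distinct genes), the groups and the tests were chosen with earlier results of these data known, and a list's count is no independent evidence.

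On simulated data for 22180 genes with 200 changed, this comparison recovered 47% at a log2 difference of 1 and 94.6% at 2, with 4.6 and 8 false calls per round. The simulated noise was normal and independent for each gene and array, and both head arrays were shifted alike. The real arrays differed in range, and the 2 head arrays differed from each other in some genes. These shares therefore need not hold for the real data. The alternatives were other scalings, a dim gene filter, probe set averages, other eBayes settings, other groupings of the muscles, the value range or slow fibre mean as covariate, and each array left out.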

Additional observations from a re-analysis of the deposited data

Results flagged for a closer look

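Among the 7 trunk and limb muscles, 1 array stood far from the other 6 in 15 of 73 gene or list values examined, where chance alone gives about 1 in 20. For single genes these were Smc6 in gastrocnemius (3.67), Kcne1l (5.88), Myl3 (10.39) and Irs2 (8.0) in soleus, and Scd1 in trapezius (9.40). The soleus also stood apart in the mean level of 7 lists, namely slow fibre genes (9.43), fast fibre genes (10.30), glycolysis and glycogen genes (9.33), myogenic regulators and satellite cell genes (6.46), Mss51 and myostatin pathway genes (4.86), neuromuscular junction genes (5.83) and smooth muscle and pericyte markers (7.12). The trapezius stood apart in white adipocyte markers (8.18) and tendon markers (4.22), and the triceps in interferon-induced genes (4.53). The genes and lists share arrays and some members, so the 15 values are not independent.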

How the results depend on the processing

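Of 655 differences of named genes recomputed under 20 alternatives, 654 kept their sign. The exception was Scd1 at 0.14 with the trapezius counted with the head muscles, and 15 passed the threshold under an alternative. Genes called higher numbered 1 with median centring, cyclic loess or the dim gene filter, 9 with the slow fibre mean as covariate, and 0 to 5 with 1 array left out. Genes called lower numbered 8 with the slow fibre covariate and 0 to 6 with 1 array left out. In both directions the most calls among the latter came without the soleus. Genes above all others numbered 452 with the trapezius counted with the head muscles and 1457 to 3265 with 1 array left out. Genes below numbered 821 with median centring, 670 of 11090 genes with the dim gene filter, 625 with the trapezius counted with the head muscles and 1416 to 4006 with 1 array left out. With the trapezius counted with the head muscles the counts below all others were 4 for Hox groups 5 to 8, 0 for slow fibre genes, 0 for white adipocyte markers and 2 for immediate early genes. Leaving out an array makes separation easier by construction, most of all without 1 head array, where the lone array was assumed to vary like the rest. With the trapezius counted with the head muscles, differences of named genes that moved by over 1.5 times were 0.73 for Rsad2, 2.91 for Mss51, 0.65 for Malt1, 1.19 for Bpifa2, 0.80 for Ccdc85a, -0.60 for Usp35, -1.87 for Car3, -0.46 for Nfatc2 and -0.43 for Cyp2e1. Bpifa2 was 1.23 without the digastric, Hat1 0.58 with probe sets averaged, and Myl3 -1.77 with the slow fibre covariate. Low signal limits lists whose head means lie below the array medians, among them the Hox, keratinocyte, thyroid and lymphocyte lists.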

Other observations

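Some genes lay lower in both head muscles than in 6 of the 7 trunk and limb muscles but not than in the soleus, and were chosen here after their values were seen. Since they were chosen for that pattern, their differences without the soleus are given without a p-value. Smox, a spermine oxidase, was at 5.78 in masseter, 5.17 in digastric and 5.38 in soleus, with a median of 9.02 and a highest value of 9.84 among all 7 trunk and limb muscles. Its difference was -3.09 with all arrays (adjusted p = 0.328) and -3.62 without the soleus. Prkag3, the AMP kinase subunit of fast glycolytic muscle, was at 5.50 and 5.24 in the head muscles, 5.08 in soleus and up to 7.45 elsewhere, with a difference of -1.79 without the soleus. Bhlhe41, a clock-related repressor, was at 5.11 and 5.03 against 4.73 in soleus and a median of 6.39 over the 7 muscles (difference -1.31 without the soleus). Slc37a4, a glucose 6-phosphate transporter, was at 7.04 and 6.72 against 6.20 in soleus and a median of 8.04 (difference -1.25 without the soleus).

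A few genes were high in 1 head muscle only. Neto2, an auxiliary subunit of glutamate receptors, was at 5.61 in masseter, 3.11 in digastric and at most 3.17 in the other muscles. Klk1, at 7.28 in masseter, was at most 1.93 in all other muscles. Values outside the masseter lay below the array medians for both genes, so that no size is given for the difference. Both genes were chosen after their values were seen.

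The 2 probe sets without a single named gene that passed the limma test had identical values on all arrays. They were at 4.16 in masseter and 4.15 in digastric, against 1.01 to 2.08 in the other muscles, a difference of 2.65 (adjusted p = 0.034). No gene is listed for either.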
